A study of Mus musculus with 48 samples.

Results

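The 9 genes described here are regulators of gliogenesis and early glial genes, namely *Gfap*, *Aqp4*, *Nfia*, *Nfib*, *Sox9*, *Olig1*, *Olig2*, *Fabp7* and *Aldoc*. They were taken by name from the count table, and all 9 are among its 16510 genes. Single cells of the mouse hypothalamus had been sequenced at E18.5, from 6 control embryos and 9 *Eed-cKO* embryos. Both genotypes carried floxed *Eed* alleles (*Eed fl/fl*), on a mixed B6:129S1 background, and only the *Eed-cKO* embryos (*Eed fl/fl;Sox1-Cre/+*) also carried *Sox1-Cre*, a Cre insertion in the *Sox1* locus that acts in the developing central nervous system. *Eed* encodes a subunit of polycomb repressor complex 2 (PRC2), which places a repressive methyl mark on histone H3, and cells outside the neural lineage were not targeted. Each gene was measured per embryo in all neural cells and, separately, in astrocyte-type cells and in the other neural cells. The question was whether a difference in the tissue goes with more glial cells or with another level per glial cell.

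In the embryonic brain, radial glia first give rise to neurons and later to astrocytes and oligodendrocyte precursors. *Sox9* and the nuclear factor I genes *Nfia* and *Nfib* encode transcription factors needed for the start of gliogenesis. *Olig1* and *Olig2* encode basic helix-loop-helix factors of the oligodendrocyte lineage that are also found in glial progenitors. *Fabp7* encodes a fatty acid-binding protein of radial glia and immature astrocytes, and *Aldoc* a glycolytic aldolase enriched in astrocytes. *Gfap*, an intermediate filament, and *Aqp4*, a water channel, belong to more mature astrocytes, and in the hypothalamus *Gfap* is also found in tanycytes, the radial cells that line the third ventricle.

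Of the genes, 8 lie on 4 chromosomes and are placed here by their whole length (GENCODE vM21, GRCm38). *Gfap* lies at chr11:102887336-102900912 on the minus strand, *Sox9* at chr11:112782224-112787760 and *Aldoc* at chr11:78322968-78327781, both on the plus strand. *Nfia* lies at chr4:97772734-98118874 on the plus strand and *Nfib* at chr4:82290173-82705750 on the minus strand. *Olig1* (chr16:91269772-91271933) and *Olig2* (chr16:91225457-91228677) are neighbours on the plus strand, and *Fabp7* lies at chr10:57784881-57788450 on the plus strand. *Nfia* shares exon bases with *E130114P18Rik* on the opposite strand, and *Olig1* with *Gm15966*. Whether the counting used strand is not given in the sources used here, so reads of those partners could be counted with them.

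Promoter sequences (RefSeq, GRCm38.p6, from 250 bases before to 50 bases after a transcription start) were found for 5 of the 9 genes. Those of the gene that rose and of 2 genes that fell in astrocyte-type cells are shown. They were searched on both strands for a nuclear factor I half-site (TTGGC), a SOX core (ACAAT), a STAT site (TTCNNNGAA) and a TATA box (TATAAA), which share no bases in these windows. Capitals mark the matches, which read as the reverse complement where they lie on the other strand, and positions count from 0 at the first transcribed base.
*Gfap*, chr11:102897151-102897450, minus strand: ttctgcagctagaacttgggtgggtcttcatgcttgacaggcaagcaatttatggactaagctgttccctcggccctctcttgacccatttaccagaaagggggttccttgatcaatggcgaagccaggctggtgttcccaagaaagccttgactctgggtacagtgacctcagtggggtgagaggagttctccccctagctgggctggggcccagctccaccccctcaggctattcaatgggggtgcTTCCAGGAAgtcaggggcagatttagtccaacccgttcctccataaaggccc
*Olig2*, chr16:91225300-91225599, plus strand: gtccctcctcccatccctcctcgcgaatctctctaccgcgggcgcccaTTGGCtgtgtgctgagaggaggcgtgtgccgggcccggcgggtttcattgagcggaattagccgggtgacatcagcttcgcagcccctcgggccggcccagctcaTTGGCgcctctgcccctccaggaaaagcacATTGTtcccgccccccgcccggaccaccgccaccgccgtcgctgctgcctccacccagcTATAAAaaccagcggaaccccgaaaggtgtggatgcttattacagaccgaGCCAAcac
*Fabp7*, chr10:57784673-57784972, plus strand: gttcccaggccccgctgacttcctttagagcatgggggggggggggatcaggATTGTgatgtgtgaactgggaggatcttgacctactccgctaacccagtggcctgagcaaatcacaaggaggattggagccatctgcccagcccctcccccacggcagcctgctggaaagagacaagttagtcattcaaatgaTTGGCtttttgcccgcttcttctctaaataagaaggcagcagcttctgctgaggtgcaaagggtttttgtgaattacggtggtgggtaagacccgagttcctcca
The *Gfap* promoter held 1 STAT match, at -2, and none of the other motifs. Of 32851 promoters of the same length, 8.30% held such a STAT match. The *Olig2* promoter held 3 half-sites, at -202, -97 and 42, with a SOX match at -67 and a TATA match at -8. The *Fabp7* promoter held 1 half-site at -55 and 1 SOX match at -198. Half-sites were in 46.7% of all promoters, SOX matches in 31.0% and TATA matches in 13.6%. The *Olig2* window held 25 CG dinucleotides, against 3 for *Gfap*, 6 for *Fabp7* and a median of 7 over all promoters. A match is only a run of letters in the window.

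The table held 14121 cells in 48 libraries (22 control, 26 *Eed-cKO*), with 601 to 37713 UMIs per cell (median 4549) and 658175 to 7487417 UMIs per embryo. A UMI marks 1 caught transcript molecule. The embryos came from 4 control and 6 *Eed-cKO* litters, as read from the library names, and no litter held both genotypes, so litter lies within genotype. Control embryos 1 and 5 were litter-mates, as were 4 and 6, and so were *Eed-cKO* embryos 1 and 4, 6 and 7, and 8 and 9. The tests take embryos as the samples, and they were repeated with litter-mates summed, so that each of the 10 litters was 1 sample, a choice made after seeing the data. One library, of control embryo 5, held 1207 cells where the others held 163 to 465. Of 14019 distinct barcodes, 203 cells shared one with a cell of another library, and no pair of libraries shared more than 2. *Eed* itself was lower in neural cells of *Eed-cKO* (log2 fold change -0.45, adjusted p = 0.000454 in the edgeR test below), with all 9 *Eed-cKO* embryos below every control embryo. The kit tags 3′ ends, and where the *Eed* reads lie against the deleted exons was not examined. The fall was therefore not taken as a check of the deletion. After clustering, 13293 cells were counted as neural (6839 control, 6454 *Eed-cKO*) and 828 were left out as vascular, meningeal or microglial. Among the cells counted as neural, 2 unnamed clusters had *Cga*, a hormone subunit gene of the pituitary, among their leading genes. One of them held 2 control and 243 *Eed-cKO* cells. The other held 61 cells, all from *Eed-cKO*, and was also led by *Tshb*, a second such subunit gene, and by *Kcne2*, *Clic6* and *Folr1*, which are known from the choroid plexus. These cells may not be neural, so the astrocyte-type share and the tests in all neural, astrocyte-type and other neural cells were repeated without both clusters, a choice made after seeing the data. The other cell type shares, the precursor-type results and the comparison between sets of cells were not.

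A cell was called astrocyte-type when it held at least 1 UMI of 3 or more of 5 genes that are not among the 9, namely *Slc1a3*, *Aldh1l1*, *Mlc1*, *Slc4a4* and *Ednrb*. There were 955 such cells, 361 in control and 594 in *Eed-cKO*. They made up 5.32% ± 1.76 of the neural cells of a control embryo (SD, n = 6) and 9.21% ± 2.14 of those of an *Eed-cKO* embryo (SD, n = 9), a difference of 3.89 percentage points (exact two-sided permutation test over embryos, p = 0.00400, 0.00999 after adjustment over 5 cell types). The share ran from 3.55% to 8.39% in control and from 5.47% to 11.7% in *Eed-cKO*, and 7 of 9 *Eed-cKO* embryos exceeded the highest control embryo. The larger share no longer passed once every cell was thinned to the same depth. With 2000 UMIs per cell the shares were 4.79% and 7.14% (p = 0.0899 in the same exact test), with 1231 control and 1015 *Eed-cKO* cells too shallow to be kept. With 1000 UMIs they were 3.50% and 4.55% (p = 0.202), with 414 and 291 cells left out. The rule was met by 632 cells thinned to 2000 UMIs and by 489 thinned to 1000. Median depth before thinning was 4615 UMIs per astrocyte-type cell in control and 4906 in *Eed-cKO*, and 4785.5 and 4375.5 in the other neural cells. With 4 or more of the 5 genes the difference was 1.56 points (p = 0.0799, exact), and with 2 or more it was 6.57 points (p = 0.00120, exact). Leaving out cells that met the rule of another glial or cycling type lowered it to 1.67 points (4.06% and 5.73%, exact p = 0.0488 before adjustment). Without the 2 clusters led by *Cga* it was 3.35 points (exact p = 0.00999). With only the rule cells of the astrocyte-like cluster it was 2.30 points (4.45% and 6.75%, exact p = 0.0392), and without the rule cells of unnamed clusters 3.003 points (exact p = 0.0220), both before adjustment. With all cells of the astrocyte-like cluster in place of the rule, the difference was 4.56 points (5.49% and 10.1%, exact p = 0.00120). A rule of 2 or more of *Slc1a3*, *Aldh1l1* and *Mlc1* gave a difference of 5.93 points (5.65% and 11.6%, exact p = 0.00120). Both are before adjustment and without thinning. With litters as samples it was 3.85 points (exact p = 0.00952, the smallest that 4 against 6 litters can give).

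**Figure D1:**
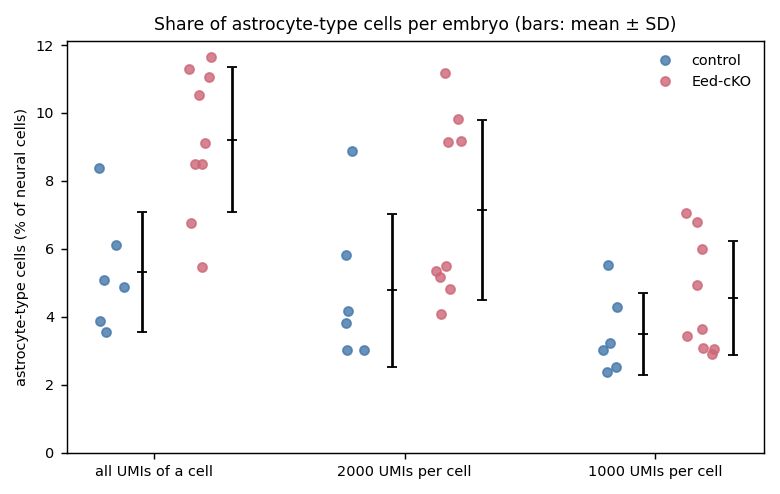
Astrocyte-type cells as a percent of the neural cells of each embryo (points), with the mean and SD of each genotype, for all UMIs of a cell and for cells thinned to 2000 or 1000 UMIs. The means of 5.32% and 9.21% with all UMIs become 4.79% and 7.14%, and then 3.50% and 4.55%.

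The genes of the rule differed between genotypes within the cells they chose. Of the 5, *Slc4a4* and *Ednrb* were lower in *Eed-cKO* astrocyte-type cells, with 7 of 9 embryos below every control embryo for each, while *Mlc1* lay above every control embryo in 6. In CPM, a gene's UMIs scaled to a common total for the cells of each embryo after TMM normalisation, their medians were 1066 and 552 for *Slc4a4* and 1715 and 776 for *Ednrb*, control first. These 5 genes are a description, since they chose the cells. Most of the cells lay in 1 cluster named astrocyte-like (303 of 361 control and 426 of 594 *Eed-cKO* cells), and 2 control and 58 *Eed-cKO* cells lay in clusters without a name. Many also met another rule: 48 control and 144 *Eed-cKO* cells were tanycyte-type, 20 and 65 were ependymal-type, 28 and 95 were cycling-type, and 88 and 144 held 3 or more neuron markers. In these cells all 6 pericyte or smooth muscle markers were higher in *Eed-cKO*, with a summed level of 0 to 19.6 CPM over control embryos and 63.3 to 238 over *Eed-cKO* embryos, and *Kcnj8*, *Abcc9* and *Myh11* were at 0 in control. Marker sums, here and below, are in CPM without TMM scaling, and markers were counted as higher without it too. All 5 vascular leptomeningeal markers were also higher (3.95 to 47.2 against 155 to 452), as were 3 of 5 endothelial markers (5.10 to 35.6 against 24.6 to 107, with *Cldn5* at 0 in control). So were all 3 pituitary markers (5.10 to 16.5 against 0 to 134, with *Cga* and *Tshb* at 0 in control). All 5 microglia or macrophage markers were counted as higher (0 to 6.43 against 0 to 19.9, with *Cx3cr1* at 0 in control). Their summed level went the other way in the median embryo, at 2.67 CPM in control and 0 in *Eed-cKO*. Neuron markers summed to 1158 to 4695 in control and 333 to 3862 in *Eed-cKO*, with 1 of 6 higher. All 7 cycling markers (121 to 679 against 30.1 to 993), 4 of 5 tanycyte markers (141 to 358 against 238 to 633) and 4 of 5 ependymal markers (201 to 969 against 237 to 1423) were higher, and none of the 5 oligodendrocyte precursor markers was (44.1 to 373 against 37.3 to 181). The part of these differences in the results below was not tested, beyond the cell sets tried as alternatives.

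In all neural cells, 6 of the 9 genes were higher in *Eed-cKO* and none was lower. *Gfap* and *Aqp4* rose most, *Sox9*, *Aldoc*, *Nfia* and *Nfib* rose less, and *Olig1*, *Olig2* and *Fabp7* did not pass the test. UMI counts were summed per embryo and compared with edgeR's quasi-likelihood test, with p adjusted by Benjamini-Hochberg over all 12558 genes tested. Of all those genes 27.7% passed in either direction, 15.3% as higher and 12.4% as lower. Of the called genes 55.1% were higher, or 67.2% when counts were scaled by library size alone. Levels below are given as the lowest, median and highest embryo.

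Markers of other cell types differed in all neural cells as well, and their part in these results was not tested beyond the sets of cells tried. None of the 6 neuron markers was higher, and their sum was 8550 to 9864 CPM in control and 7173 to 8135 in *Eed-cKO*, without overlap. Of the oligodendrocyte precursor markers 1 of 5 was higher (95.9 to 147 against 49.0 to 98.1). Sums that did not overlap were those of the vascular leptomeningeal markers, with 5 of 5 higher (2.18 to 21.6 against 32.8 to 152), and the pericyte or smooth muscle markers, with 6 of 6 higher (2.02 to 7.52 against 9.56 to 59.04). All cycling (22.7 to 63.9 against 37.8 to 225), tanycyte (80.8 to 124 against 108 to 161), ependymal (23.5 to 225 against 36.7 to 259.7), pituitary (10.7 to 37.3 against 8.62 to 488) and microglia or macrophage markers (0.438 to 2.61 against 0 to 12.6) were higher. So were 4 of 5 endothelial markers (7.003 to 12.3 against 9.26 to 26.7) and, without TMM scaling, 4 of the 5 genes of the astrocyte rule (252 to 689 against 358 to 834). With TMM scaling *Slc4a4*, which is among those 4, was not higher, with a mean of 52.5 CPM in control and 51.3 in *Eed-cKO*.

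*Gfap* levels were 0.149, 0.872 and 4.12 in control and 4.90, 5.99 and 13.1 in *Eed-cKO*, so the genotypes did not overlap. The log2 fold change was 2.26 ± 0.41 (SE, adjusted p = 0.000328), on 55 and 247 UMIs. The control median lay below the median log-CPM of 1.5 required for the test, so *Gfap* entered it through the *Eed-cKO* embryos. With the filter on total UMIs alone, which the control UMIs meet by themselves, it was at 2.24 (adjusted p = 0.000312). *Aqp4* stood at 8.94, 13.98 and 27.1 in control and at 28.6, 37.7 and 63.1 in *Eed-cKO*, also without overlap (1.51 ± 0.23, adjusted p = 5.61e-05). The litter-mates *Eed-cKO* 1 and 4 were the highest embryos for both genes, at 10.7 and 13.1 for *Gfap* and 62.5 and 63.1 for *Aqp4*. With litters as samples *Gfap* was at 2.17 (adjusted p = 0.000953) and *Aqp4* at 1.42 (adjusted p = 0.000111). These 2 genes of maturing astrocytes showed the largest differences of the 9.

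Among the transcription factors, *Sox9* ran from 48.5 over a median of 58.8 to 131 in control and from 93.6 over 129.6 to 204 in *Eed-cKO*. It rose by 0.99 ± 0.20 on the log2 scale (adjusted p = 0.000747), and 4 *Eed-cKO* embryos lay above the highest control embryo. *Nfia* was 67.2, 112 and 165 in control and 116, 194 and 206 in *Eed-cKO* (0.59 ± 0.17, adjusted p = 0.0117), with 7 *Eed-cKO* embryos above the control range. *Nfib* was 162, 257 and 369.6 against 249.99, 402 and 463 (0.49 ± 0.16, adjusted p = 0.0228), with 5 embryos above it. The calls of the nuclear factor I genes were lost in some settings. Under limma with TREAT over embryos neither passed (*Nfia* 0.63, adjusted p = 0.0562; *Nfib* 0.53, adjusted p = 0.124), while both passed in the same test over the 48 libraries (0.66, adjusted p = 0.000169, and 0.53, adjusted p = 0.00302), which counts libraries of 1 embryo as separate samples. After thinning to 2000 UMIs per cell the log2 fold change was 0.36 for *Nfia* (adjusted p = 0.138) and 0.32 for *Nfib* (adjusted p = 0.127). The *Nfib* call was also lost without control embryo 2 (adjusted p = 0.0535) or control embryo 3 (adjusted p = 0.0600).

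*Aldoc*, the aldolase, ran from 37.6 over 62.3 to 105 in control and from 65.7 over 105 to 139 in *Eed-cKO* (0.73 ± 0.18, adjusted p = 0.00496). *Fabp7* ran from 355 over 532 to 1247 in control and from 368 over 609 to 1011.5 in *Eed-cKO*, and the ranges almost coincided (-0.01 ± 0.25, adjusted p = 0.992). *Olig1* was 38.6, 53.6 and 106 against 26.6, 48.8 and 77.4 (-0.16 ± 0.21, adjusted p = 0.600), and *Olig2* 13.4, 21.0 and 35.9 against 9.36, 20.1 and 24.6 (-0.18 ± 0.19, adjusted p = 0.510). Control embryo 1 was the highest control embryo for 8 of the 9 genes, all but *Nfib*, and it also had the highest astrocyte-type share in control (8.39%). Without it the log2 fold changes were 0.29 for *Fabp7* and 0.087 for *Olig1*, and neither passed the test.

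**Figure D2:**
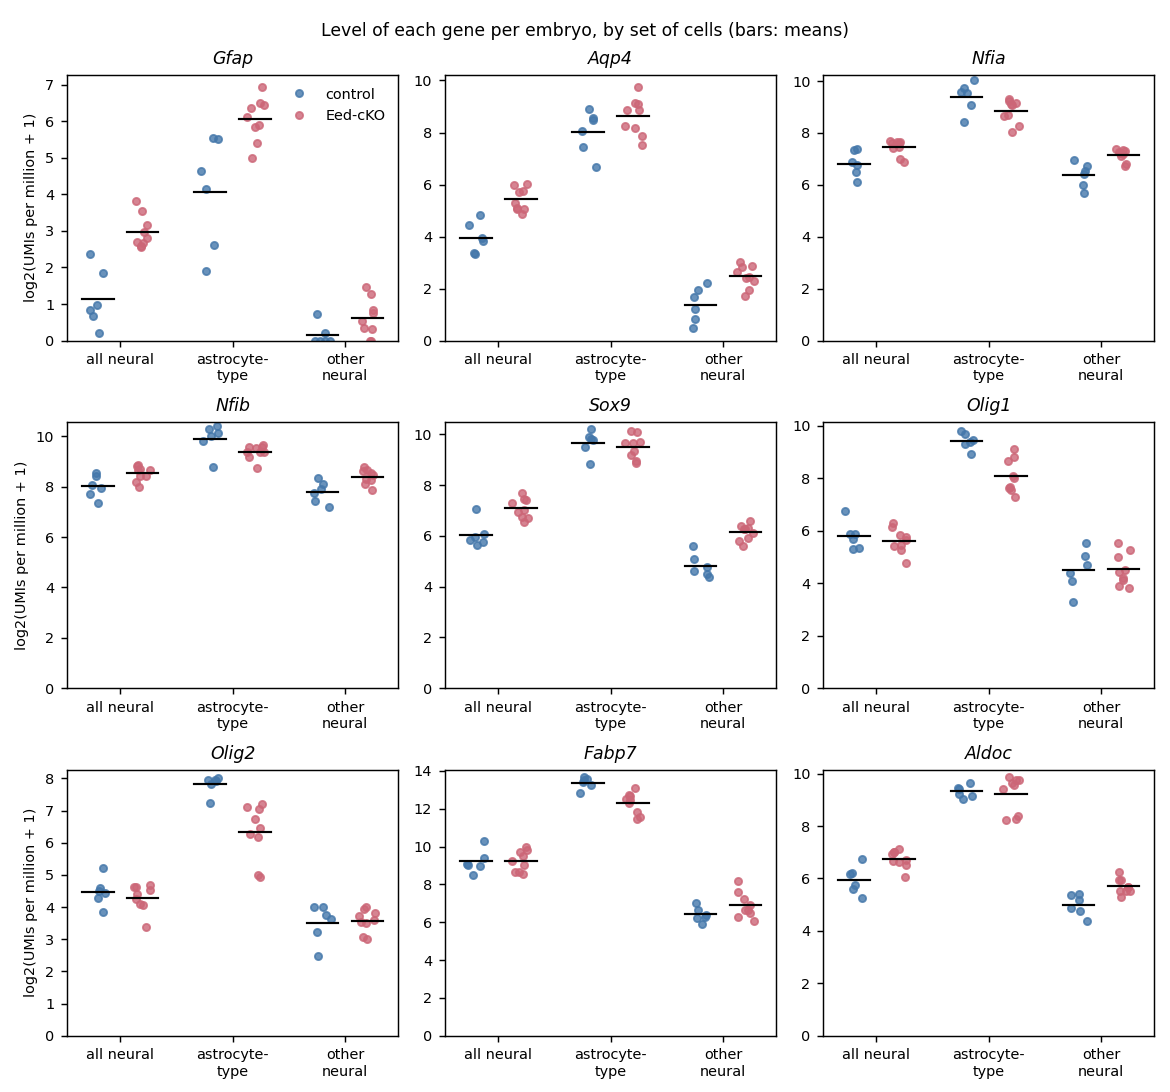
Level of each gene in each embryo (points, log2 of CPM + 1, bars are means) in all neural, astrocyte-type and other neural cells. *Gfap* and *Aqp4* do not overlap between genotypes in all neural cells, and *Olig2* does not overlap, in the other direction, in astrocyte-type cells.

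Within astrocyte-type cells *Gfap* was higher in *Eed-cKO*, while *Olig2*, *Olig1*, *Fabp7* and *Nfib* were lower, so that 5 of 9 passed the test, against 8.19% of the 12876 genes tested (644 higher and 411 lower). *Aqp4*, *Nfia*, *Sox9* and *Aldoc* did not pass.

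*Gfap* stood at 2.74, 20.3 and 45.2 CPM in control and at 31.0, 68.3 and 121 in *Eed-cKO*, and 7 of 9 *Eed-cKO* embryos exceeded the highest control embryo. The log2 fold change was 1.42 ± 0.38 (adjusted p = 0.0155). It passed with every embryo left out in turn and in 20 of 21 other settings, limma with TREAT being the exception (adjusted p = 0.0574). *Aqp4* stood at 102, 311 and 477 in control and 180.4, 470.4 and 869 in *Eed-cKO*, with 3 embryos above the control range (0.59 ± 0.30, adjusted p = 0.267). It passed in 5 of 21 settings, among them thinning to 2000 UMIs (0.68, adjusted p = 0.0132) and the rule cells of the astrocyte-like cluster (0.91, adjusted p = 0.00386).

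*Olig2* was 151, 242 and 255 in control and 29.7, 86.1 and 148 in *Eed-cKO*, with no overlap. It fell by 1.29 on the log2 scale (SE 0.23, adjusted p = 0.000279). *Olig1*, its neighbour on chromosome 16, was 486, 686 and 903 in control and 155, 254 and 552 in *Eed-cKO*, with 8 of 9 *Eed-cKO* embryos below every control embryo (-1.21 ± 0.22, adjusted p = 0.000450). *Fabp7* was 7265, 11336 and 13135 in control and 2826, 5579 and 8860 in *Eed-cKO*, again with 8 of 9 below (-1.02 ± 0.21, adjusted p = 0.00129). These 3 genes passed in all 21 other settings and with each of the 15 embryos left out. *Olig1* and *Olig2* were closest to 0 when the cells of the astrocyte-like cluster were used in place of the rule, at -0.77 (adjusted p = 0.00208) and -0.78 (adjusted p = 0.00761). Without the 2 clusters led by *Cga* they were at -1.0998 (*Olig2*), -1.09 (*Olig1*) and -0.93 (*Fabp7*), and *Gfap* at 1.57. In all neural cells none of the 3 had passed, and the same 6 genes passed there with or without these clusters.

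*Nfib* was 439, 1080.3 and 1355 in control and 428, 666 and 814 in *Eed-cKO* (-0.59 ± 0.19, adjusted p = 0.0461), and the call was lost in 12 of 21 settings and in 13 of 15 fits without 1 embryo. *Nfia* had a difference of the same size, at 338, 759 and 1046 against 263, 539.8 and 632 (-0.58 ± 0.21, adjusted p = 0.0855). Control embryo 5, which holds the library of most cells, was the lowest control embryo for both. Without that embryo *Nfia* passed (-0.74, adjusted p = 0.00965), the only such fit of 15. It also passed in 5 of 21 other settings, among them without that library alone (-0.64, adjusted p = 0.0210). *Sox9* overlapped fully, at 453, 884 and 1175 in control and 464, 802 and 1134 in *Eed-cKO* (-0.16 ± 0.20, adjusted p = 0.741). *Aldoc* was 526.3, 642 and 799 in control and spread more widely in *Eed-cKO*, at 302, 752 and 942 (-0.01 ± 0.23, adjusted p = 0.988).

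In the other neural cells, which are mostly neurons, 5 of the 8 genes that could be tested were higher in *Eed-cKO*, beside 21.6% of all 12241 genes tested (11.5% higher). Of the called genes 53.2% were higher, or 64.8% under library size alone. *Sox9* rose most clearly, from 20.1, 25.1 and 47.3 CPM in control to 48.0, 76.3 and 94.4 in *Eed-cKO*, without overlap (1.29 ± 0.17, adjusted p = 5.21e-06). *Nfia* was 50.5, 88.2 and 123 against 104, 151 and 168 (0.73 ± 0.15, adjusted p = 0.000986), and *Nfib* 145, 225 and 328 against 230.0, 349.6 and 440.2 (0.59 ± 0.15, adjusted p = 0.00708). Without the 2 clusters led by *Cga* the log2 fold changes were 1.203 for *Sox9* (adjusted p = 2.25e-05), 0.76 for *Nfia* (adjusted p = 0.000581) and 0.63 for *Nfib* (adjusted p = 0.00437).

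Markers of several cell types also differed in these other neural cells. Summed neuron markers were lower in *Eed-cKO*, at 7922 to 8857 CPM against 9302 to 10178 in control, without overlap, although 2 of the 6 were higher. None of the 5 oligodendrocyte precursor markers was higher (97.6 to 156 against 50.2 to 100.3). The 5 genes of the astrocyte rule summed to 30.8 to 51.4 in control and 71.3 to 132 in *Eed-cKO*, with 4 of 5 higher. All 5 vascular leptomeningeal markers were higher (1.73 to 19.0 against 14.2 to 116, with *Lum* at 0 in control), as were 5 of 6 pericyte or smooth muscle markers (1.94 to 7.41 against 3.54 to 47.5), all 3 pituitary markers (10.5 to 38.3 against 8.25 to 554), all 7 cycling markers (19.3 to 27.9 against 21.6 to 80.9), 4 of 5 endothelial markers (6.64 to 12.3 against 7.35 to 22.6), 4 of 5 tanycyte markers (76.5 to 115 against 67.3 to 138) and all 5 microglia or macrophage markers (0.451 to 2.51 against 0 to 11.2). Of the ependymal markers 2 of 5 were higher (13.004 to 149 against 14.2 to 97.1). With non-neural cells left out by their markers instead of by cluster, *Sox9* was at 1.302 (adjusted p = 6.38e-06), *Nfia* at 0.74 (adjusted p = 0.000980) and *Nfib* at 0.60 (adjusted p = 0.00688). The part of the marker differences in these results was not tested beyond these sets of cells.

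*Aldoc* also rose there (0.68 ± 0.15, adjusted p = 0.00209), as did *Aqp4*, from a median of 1.74 to 4.44 CPM (1.304 ± 0.35, adjusted p = 0.00920). Its control median also lay below the level required for the test, and with the filter on total UMIs alone it was at 1.29 (adjusted p = 0.0111). *Fabp7* differed by 0.50 ± 0.24 (adjusted p = 0.133), *Olig1* by 0.0054 (adjusted p = 0.995) and *Olig2* by 0.025 (adjusted p = 0.955). Only 5 (control) and 18 (*Eed-cKO*) UMIs of *Gfap* were found there, and it did not reach the median log-CPM required for the test. In the 2 other settings that tested it in these cells, *Gfap* did not pass. Leaving out cells that met the rule of any other glial or cycling type brought *Fabp7* (1.17, adjusted p = 0.00838) and *Olig1* (1.09, adjusted p = 0.0131) past the threshold.

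The rise of the regulators remained in neuron-type cells that held none of the 5 astrocyte genes (5634 control and 4704 *Eed-cKO* cells, a set chosen after seeing the data). There *Sox9* rose by 1.295 (adjusted p = 1.29e-05), *Nfia* by 0.73 (adjusted p = 0.00235), *Nfib* by 0.62 (adjusted p = 0.00843) and *Aldoc* by 0.53 (adjusted p = 0.0144). *Aqp4* was too low there for the test, with embryo medians of 0.840 CPM in control and 0.850 in *Eed-cKO* on 26 and 34 UMIs. Levels in CPM in this paragraph are without TMM scaling. At least 1 UMI of *Sox9* was found in 4.08% of the control cells and 9.80% of the *Eed-cKO* cells of this set, or in 2.21% and 5.07% after thinning to 2000 UMIs. Median depth was 5039 and 4559 UMIs. The kinds of neurons need not be alike between genotypes. Among the cells counted as neural, an unnamed cluster led by *Tfap2b* and *Hoxc10* held 12 control and 1443 *Eed-cKO* cells. Others went the other way, with 835 and 122 cells in a cluster led by *Sp8* and 344 and 26 in one led by *Tcf7l2*. No setting left these clusters out, and their part in the rise was not tested. In non-neural cells (median depth 3946 and 3708), of which meningeal and other types are known to use *Sox9*, the shares with *Sox9* were 13.3% and 14.6%. *Nfia* was found in 33.4% and 42.2% of the non-neural cells (21.3% and 29.4% after thinning), and its pooled level there was 124 CPM in control (exact Poisson 95% interval 107 to 142) and 172 in *Eed-cKO* (156 to 190). Over embryos with at least 10 such cells the *Nfia* level ran from 86.3 to 155 in control and from 57.4 to 259 in *Eed-cKO*, and this difference was not tested. *Nfib* was found in 51.3% and 54.5% of them, at 324 and 284 CPM.

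The genotype difference was then compared between astrocyte-type and other neural cells of the same embryos, in 1 fit blocked by embryo. It was lower in astrocyte-type cells for 5 of the 9 genes, where 4.30% of the 12730 genes tested passed in either direction and 2.58% as lower. The difference of the log2 fold changes was -1.45 ± 0.22 for *Sox9* (adjusted p = 0.000149), -1.29 ± 0.15 for *Nfia* (adjusted p = 5.98e-06) and -1.11 ± 0.15 for *Nfib* (adjusted p = 5.25e-05). It was -1.53 ± 0.34 for *Fabp7* (adjusted p = 0.00796) and -1.31 ± 0.33 for *Olig2* (adjusted p = 0.0189). Both of these calls were lost when 2 or more of the 5 markers sufficed, at -1.38 for *Fabp7* (adjusted p = 0.0506) and -1.01 for *Olig2* (adjusted p = 0.280). The log2 fold changes of *Nfia* and *Nfib* had opposite signs in the 2 sets of cells, although that of *Nfia* did not pass in astrocyte-type cells. *Sox9* rose in the other neural cells and did not pass in astrocyte-type cells. The remaining genes did not pass: *Olig1* at -1.22 (adjusted p = 0.0631), *Aldoc* at -0.78 (adjusted p = 0.117), *Aqp4* at -0.65 (adjusted p = 0.643), and *Gfap* at -0.07 (adjusted p = 0.941), which rests on the 5 and 18 UMIs above. Of these, *Olig1* passed under library size alone (adjusted p = 0.0476) and with 4 or more markers (adjusted p = 0.00947). *Aldoc* (-0.90, adjusted p = 0.000505) and *Aqp4* (-1.31, adjusted p = 0.0151) passed after thinning to 2000 UMIs.

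**Figure D3:**
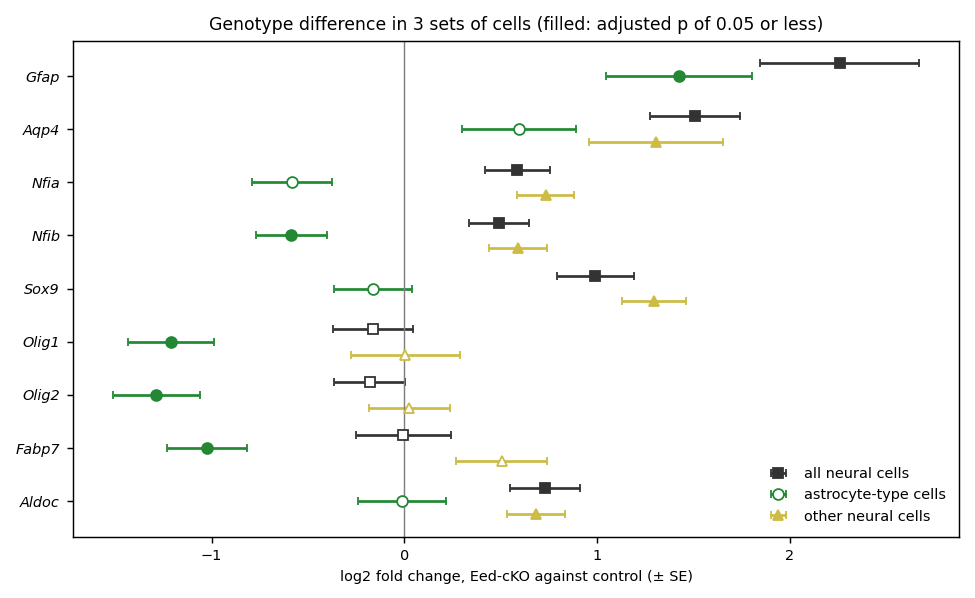
Log2 fold change of each gene in *Eed-cKO* against control with its standard error, in all neural cells (squares), astrocyte-type cells (circles) and other neural cells (triangles), filled where the adjusted p was 0.05 or less. *Gfap* lies to the right in both sets shown for it (2.26 and 1.42), while *Olig1*, *Olig2* and *Fabp7* are filled only as circles, on the left.

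The UMIs of the 9 genes came from different cells. Astrocyte-type cells gave 90.9% of the *Gfap* UMIs of neural cells in control and 92.7% in *Eed-cKO* (exact binomial 95% intervals 80.1% to 97.0% and 88.7% to 95.6%, which cover counting error only). The shares were 88.8% and 90.9% for *Aqp4* and 87.0% and 84.1% for *Fabp7*. Lower shares were found for *Olig2* (51.5% and 49.3%), *Aldoc* (51.8% and 57.2%), *Sox9* (61.0% and 55.3%) and *Olig1* (60.2% and 59.9%). For *Nfia* (29.7% and 27.8%) and *Nfib* (18.4% and 18.6%) most UMIs came from other neural cells.

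**Figure D4:**
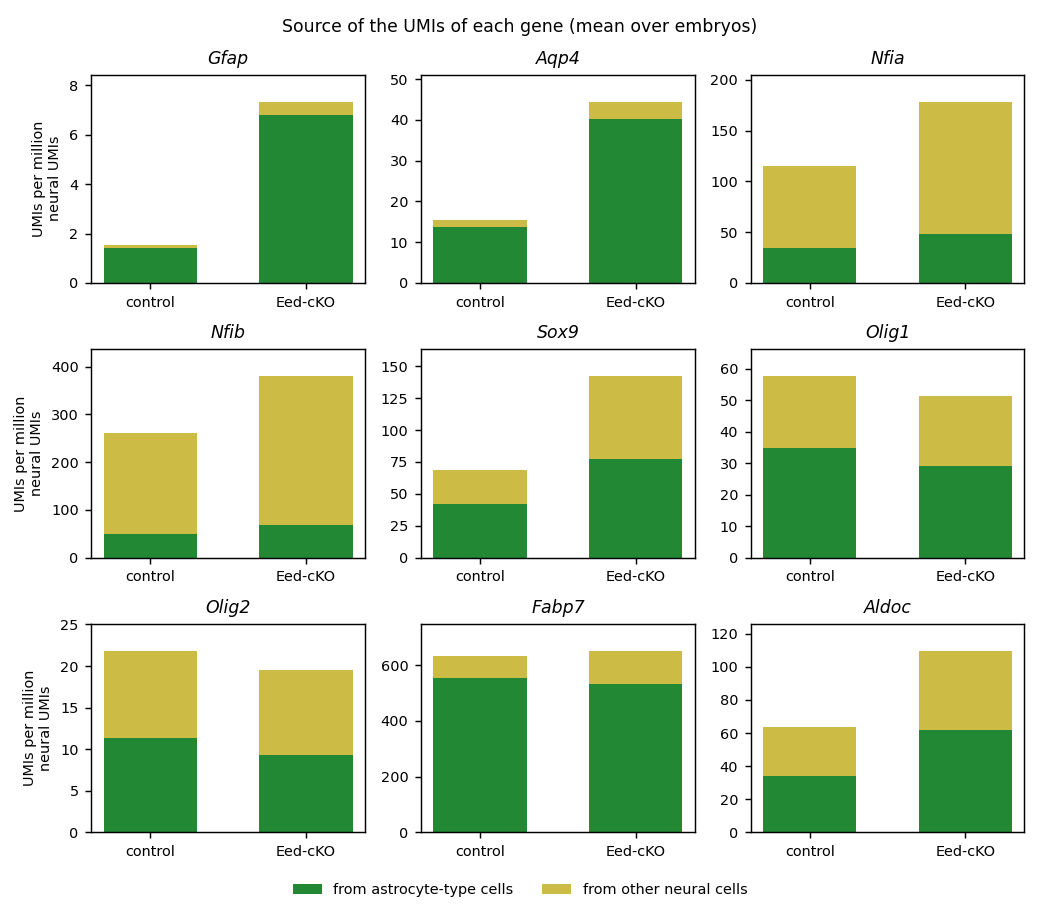
UMIs of each gene in neural cells, mean over embryos in CPM without TMM scaling, stacked by source in astrocyte-type cells and in other neural cells. For *Gfap* 1.40 of 1.53 in control and 6.78 of 7.34 in *Eed-cKO* come from astrocyte-type cells, while for *Nfib* these are 49.1 of 262 and 69.2 of 379.7.

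The level in neural cells can be set out as the share of UMIs from astrocyte-type cells, 5.12% ± 2.32 in control (SD, n = 6) and 10.0% ± 3.03 in *Eed-cKO* (SD, n = 9), and the mean level in each set of cells. Changing only that share from the control to the *Eed-cKO* value multiplied the computed *Gfap* level by 1.86, changing only the levels within the sets by 3.25, and changing both by 5.90, against an observed ratio of 4.81. For *Aqp4* the factors were 1.85 for the share, 1.64 for the levels and 2.93 for both. For *Sox9* they were 1.57, 1.54 and 2.03, and for *Aldoc* 1.48, 1.33 and 1.81. For *Nfia* (1.26, 1.39 and 1.53) and *Nfib* (1.145, 1.37 and 1.44), as for *Gfap*, the factor of the share was below that of the levels.

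For the 3 genes that did not pass in all neural cells the parts went in opposite directions. The factors of *Fabp7* were 1.83 for the share, 0.636 for the levels and 1.04 for both. Those of *Olig1* were 1.56, 0.653 and 0.881, and those of *Olig2* 1.48, 0.702 and 0.881. These factors are arithmetic on group means and carry no test, and they inherit the dependence of the share on depth given above.

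At least 1 UMI of *Gfap* was found in 12 of 361 control astrocyte-type cells (3.32%) and 100 of 594 *Eed-cKO* cells (16.8%), or in 2.81% and 10.8% after thinning to 2000 UMIs. It was found in 2 of 5634 and 6 of 4704 neuron-type cells without astrocyte genes, in 1 of 481 non-neural *Eed-cKO* cells, and in 0 of 347 non-neural control cells, which allows a share of cells with a UMI, not of cells that express the gene, of up to 0.865%. *Aqp4* was detected in 110 of 361 control and 297 of 594 *Eed-cKO* astrocyte-type cells (17.2% and 35.6% after thinning), against 0 of 347 and 1 of 481 non-neural cells. *Olig2* was detected in 36.6% and 24.2% of them (25.6% and 14.1% after thinning) and *Olig1* in 56.8% and 46.3% (44.1% and 31.7%). Among the non-neural cells, *Olig2* was seen in none of 347 control and 3 of 481 *Eed-cKO* cells, and *Olig1* in 1 and 6. *Fabp7* was detected in nearly every astrocyte-type cell of both genotypes (96.7% and 91.9%). Of the *Gfap*-positive astrocyte-type cells, 6 of 12 in control and 63 of 100 in *Eed-cKO* also held *Olig1*, and 1 of 12 and 23 of 100 held *Olig2*. *Aqp4* was found in 9 of those 12 and 63 of those 100 cells.

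Oligodendrocyte precursor-type cells, with 2 or more of *Pdgfra*, *Sox10*, *Cspg4*, *Lhfpl3* and *Gpr17*, made up 1.32% ± 0.43 of neural cells in control (SD, n = 6) and 1.43% ± 0.41 in *Eed-cKO* (SD, n = 9; exact permutation p = 0.605). In the 5 control and 6 *Eed-cKO* embryos with at least 10 such cells, 4 of the 8 genes tested were lower in *Eed-cKO*, beside 1.27% of 9295 genes called in either direction and 0.678% called lower. *Olig2* was 478, 751 and 812 CPM in control and 246, 269 and 348 in *Eed-cKO*, with no overlap (-1.23 ± 0.23, adjusted p = 0.00200). *Olig1* was 1353, 1700.5 and 2661 against 472, 837 and 1285, also with no overlap (-1.18 ± 0.25, adjusted p = 0.00734). The log2 fold changes in astrocyte-type cells were -1.29 and -1.21, and 13 control and 18 *Eed-cKO* cells met both rules. *Fabp7* (-1.18 ± 0.27, adjusted p = 0.0135) and *Sox9* (-1.12 ± 0.28, adjusted p = 0.0263) were lower too, but the *Sox9* call was lost in 7 of 11 fits without 1 embryo. The *Fabp7* call was lost without control embryo 4 (-0.87, adjusted p = 0.0578) and without *Eed-cKO* embryo 2 (-1.07, adjusted p = 0.0540). Without control embryo 1 only *Olig2* and *Fabp7* passed, and *Olig1* was at -1.02 (adjusted p = 0.0566). With litters as samples, 3 of them control, *Olig1* was at -0.93 (adjusted p = 0.05004, just over the threshold). For *Gfap* the counts there were 0 (control) and 2 (*Eed-cKO*).

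Tanycyte-type cells were found in every embryo and formed 2.78% ± 0.58 of neural cells in control (SD, n = 6) and 5.27% ± 1.29 in *Eed-cKO* (SD, n = 9), without overlap (exact permutation p = 0.000400, the smallest it can give, 0.00200 after adjustment over the 5 cell types). Pooled over cells, *Gfap* stood at 11.3 CPM in control tanycyte-type cells (14 UMIs, exact Poisson 95% interval 6.15 to 18.9) and 34.2 in *Eed-cKO* (80 UMIs, 27.1 to 42.5). Control embryo 3 gave 13 of those 14 UMIs, and 4 of the 6 control embryos had none. Without it the control level was 1.03 CPM, on 1 UMI. All 9 *Eed-cKO* embryos had *Gfap* UMIs in these cells. *Sox9* stood at 277 and 482. Some of these cells, 48 in control and 144 in *Eed-cKO*, were also astrocyte-type. Ependymal-type cells held the highest pooled *Sox9* level of the types listed in each genotype, 1091 in control and 918 in *Eed-cKO*, and their share was 0.674% and 1.52% (exact permutation p = 0.0244, adjusted 0.0380). In cycling-type cells *Olig1* was at 848 in control and 206 in *Eed-cKO*, and *Olig2* at 344 and 106, on 57 and 160 cells. The share of cycling-type cells was 0.835% and 2.20% (exact permutation p = 0.0304, adjusted 0.0380). With litters as samples, the adjusted exact permutation p was 0.0238 for tanycyte-type, 0.0317 for ependymal-type and 0.0476 for cycling-type shares. Unlike the astrocyte-type share, the shares of the other types were not repeated with thinned cells. Levels by type are pooled values without TMM scaling and without a test.

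**Figure D5:**
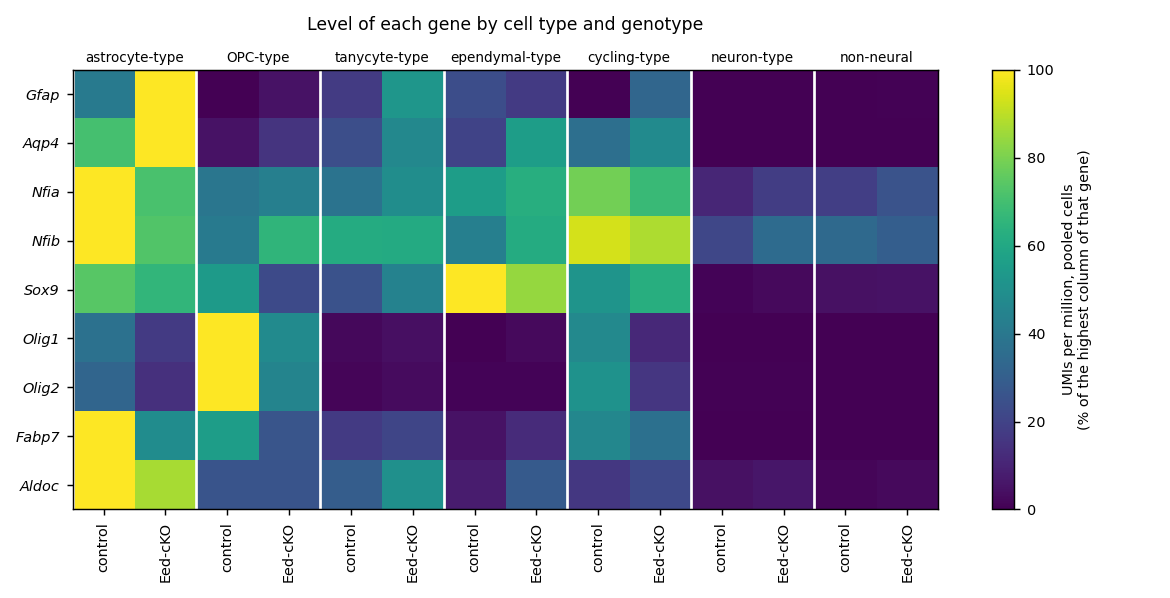
Pooled level of each gene (CPM) by cell type and genotype, as a percent of the highest column of that gene, where a cell may count in more than 1 type. *Gfap*, *Aqp4* and *Fabp7* are highest in astrocyte-type cells, *Olig1* and *Olig2* in control oligodendrocyte precursor-type cells, and *Sox9* in ependymal-type cells.

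Genes with the most similar pattern were sought over 27 clusters of at least 50 cells, both genotypes summed, by Pearson's r of log2(CPM + 1). The clusters share libraries and depth, so r is only a description here. *Gfap* was nearest to *Scrg1* (r = 0.86), *Fabp7* (0.86) and *3110082J24Rik* (0.84), and *Aqp4* to *Hepacam* (0.96), *Pdlim3* (0.93) and *Vit* (0.93). *Nfia* and *Nfib* were near each other (0.91) and both nearest to *Nfix*, a further member of the family (0.92 for each). The next gene after these was *E130114P18Rik* for *Nfia* (0.84), its partner on the opposite strand, and *Chd7* for *Nfib* (0.80). *Sox9* went with *Shroom3*, *Tmed4* and *Ccnd2* (0.91 each). *Olig1* went with *Scrg1* (0.88), *Dbx2* (0.85) and *Fabp7* (0.85), *Olig2* with *Olig1* (0.83), *Scrg1* (0.80) and *Fgfbp3* (0.80), *Fabp7* with *Acsbg1* (0.94), *Aqp4* (0.90) and *Hepacam* (0.88), and *Aldoc* with *Alpl* (0.80), *Slc7a10* (0.80) and *Pigs* (0.79).

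Other genes of the same pathways were taken from 4 lists. Of 24 regulators and signals of gliogenesis, 15 rose in neural cells and none fell, beside 15.3% and 12.4% of all genes, with a median log2 fold change of 0.43 beside 0.0058 over all genes tested. *Hes1* (2.26, adjusted p = 3.74e-08), a target of Notch, and *Id1* (2.10, adjusted p = 3.94e-07), a target of BMP, rose most. In astrocyte-type cells 4 of the 24 rose and 2 fell, beside 644 and 411 of all 12876 genes, which is also the background for the lists that follow (median 0.013, beside -0.0042 over all genes). The largest rises were those of the Notch target *Hey1* (1.497, adjusted p = 9.23e-07) and *Id1* (1.18, adjusted p = 0.00257), and the falls those of *Lifr*, a receptor subunit for gliogenic cytokines (-1.16, adjusted p = 0.00983), and *Sox2*, a progenitor factor (-0.79, adjusted p = 0.00559).

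Of 27 astroglial genes tested, 13 rose and 3 fell in neural cells (median 0.60), with *Itih3* (2.20, adjusted p = 0.000735) and the metallothionein *Mt2* (1.22, adjusted p = 0.0117) highest, and *Agt*, angiotensinogen (-1.70, adjusted p = 0.00216), and *Acsl3* (-0.42, adjusted p = 0.000339) lowest. In astrocyte-type cells 5 rose and 7 fell (median -0.27), with *Itih3* (1.35, adjusted p = 0.0396) and the glutamate transporter *Slc1a2* (0.95, adjusted p = 0.00980) highest and *Agt* (-2.70, adjusted p = 2.25e-05) and *Cldn10*, a claudin (-1.95, adjusted p = 0.000591), lowest. Like *Gfap* and *Fabp7*, genes of the astroglial list thus moved in both directions within these cells.

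Of 10 radial glial genes, 5 rose and none fell in neural cells (median 0.57), led by the intermediate filaments *Nes* (2.10, adjusted p = 9.78e-07) and *Vim* (1.67, adjusted p = 3.66e-07). In astrocyte-type cells 3 rose and 4 fell (median -0.064), with *Nes* (1.11, adjusted p = 0.000810) and *Vim* (1.04, adjusted p = 0.000597) higher and *Mfge8* (-1.10, adjusted p = 0.000579) and *Pax6* (-0.996, adjusted p = 0.0281) lower. Of 9 genes of the oligodendrocyte lineage tested in neural cells, *Nkx2-2* rose (0.52, adjusted p = 0.00326) and 3 fell, among them *Lhfpl3* (-0.87, adjusted p = 1.75e-06), with a median of -0.35. In astrocyte-type cells none of the 10 tested rose and 3 fell (median -0.90), among them *Gpr17* (-3.61, adjusted p = 0.00848) and *Lhfpl3* (-1.91, adjusted p = 0.00366).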

How the data were processed

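Single cells of the dissected hypothalamus, divided into pieces and dissociated with papain, were caught on the ddSEQ platform with a kit that tags 3′ ends, in 48 libraries. The authors deposited 1 table of raw UMI counts, after alignment to mm10 in the SureCell RNA Single-Cell software and after removal of cells under a technical filter. The submitters' processing notes name STAR 2.5.2b and SAMtools 1.3.

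Libraries of 1 embryo were summed, since they are pieces of 1 animal. Cells were clustered with scanpy 1.11.5 into 28 clusters, and clusters named from marker lists as endothelial, pericyte or smooth muscle, vascular leptomeningeal, or microglia or macrophage were left out as non-neural. Cluster names were rebuilt here. Counts were compared with the quasi-likelihood test of edgeR 4.0.16 (R 4.3.3) after TMM scaling, with Benjamini-Hochberg adjustment over all genes tested and a threshold of 0.05, on genes with a median log-CPM of at least 1.5, at least 15 UMIs in all and 2 in some embryo. The genes that define a cell set were left out of the test in it, and sums of fewer than 10 cells were not used. The standard error is the log2 fold change divided by the square root of F. Shares were compared by exact two-sided permutation over embryos (scipy 1.17.1). An upper limit for a share of 0 was set at 3 counts, and like the intervals it speaks for counting error alone.

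All 9 genes are named in each comparison, with the 2 largest rises and falls past the threshold in each list, and the 3 genes of highest r over clusters with at least 50 CPM in 1 cluster. One result that this rule would name is not reported here. The genes, lists and cell rules were chosen with earlier results of these data known. Doublets were scored with Scrublet, and the 869 cells of highest score were left out only as an alternative. limma 3.58.1 (voom, TREAT at 0.18) and DESeq2 1.42.0, other filters and scalings, sex as a covariate, libraries or litters as samples, thinned cells, other marker rules and each embryo left out were also tried. The fits were also tested on simulated data with known changes. Python 3.11.15, numpy 2.4.6 and pandas 2.3.3 were used.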

Additional observations from a re-analysis of the deposited data

Results flagged for a closer look

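Of 82 groups of 4 to 10 embryos checked with Dixon's criterion, 11 had an embryo far from the others, where chance gives about 1 in 20. In neural cells, control embryo 1 was far above the other control embryos for *Sox9* (131 CPM), *Olig1* (106) and *Fabp7* (1247), and it also had the highest ependymal-type share in control (1.81%). In astrocyte-type cells, control embryo 5 was far below for *Olig2* (151 CPM). In other neural cells *Gfap* was 0.665 in control embryo 5, on 4 UMIs. In oligodendrocyte precursor-type cells *Gfap* was 18.9 in *Eed-cKO* embryo 1, on 2 UMIs, and *Nfib* was 956 in control embryo 4. Without that embryo *Nfib* passed the test in these cells (1.23, adjusted p = 0.0196). Among the shares of cells, the oligodendrocyte precursor-type share was low in control embryo 2 (0.486%), the tanycyte-type share was high in *Eed-cKO* embryo 3 (8.42%), and the ependymal-type share was high in *Eed-cKO* embryo 1 (3.24%).

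The genotype difference differed between astrocyte-type and other neural cells, by the tested interaction, for *Nfia* (-1.29), *Nfib* (-1.11), *Sox9* (-1.45), *Olig2* (-1.31) and *Fabp7* (-1.53), all on the log2 scale.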

How the results depend on the processing

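Over all genes the count past the threshold moved by over 1.5 times in these fits. In neural cells it was 3482, against 1496 under limma with TREAT, 5917 with libraries as samples and 2224 thinned. In astrocyte-type cells it was 1055, against 653, 1733 and 677. In other neural cells it was 2648, against 1004 under TREAT, 4883 with libraries as samples, 1660 with both and 1753 in neuron-type cells with none of the 5 markers. For precursor-type cells it was 118, against 71 to 77 without control embryo 1 or 3 or *Eed-cKO* embryo 5, and for the difference between sets 547, against 318 thinned. The counts among the 9 genes stayed within 1.5 times of the reported count in all but 3 fits, with 4 to 6 called in neural cells over 15 other settings (5 to 6 with an embryo left out), 3 to 7 in astrocyte-type cells over 21 (4 to 6), 4 to 7 in other neural cells over 19 (5 to 5), and 3 to 7 for the difference between these sets over 5 (5 to 7). The lowest astrocyte-type count, 3, was that of limma with TREAT, and the lowest count of the difference, 3, that of the rule with 2 or more markers, where *Fabp7* and *Olig2* were lost. In astrocyte-type cells the filter on the total alone tested the same genes as the reported fit and is not counted. In oligodendrocyte precursor-type cells it was 2 to 4 with an embryo left out, 2 without control embryo 1. The share of astrocyte-type cells differed by 3.54 to 4.51 points with an embryo left out, and no longer passed at 2000 UMIs (2.35), at 1000 UMIs (1.06), with 4 or more markers (1.56), or at 2000 UMIs without the library of most cells (2.57).

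Sign changes occurred only for values that did not pass. *Fabp7* in neural cells was 0.035 under library size alone, 0.020 under limma with TREAT, 0.087 with libraries as samples, 0.11 with both, 0.0049 without doublets and 0.027 without the library of most cells (-0.13 to 0.29 with an embryo left out). *Olig1* in neural cells was 0.0076 with TREAT and libraries as samples (-0.27 to 0.087), and *Olig2* went from -0.28 to 0.0034 with an embryo left out. In astrocyte-type cells *Aldoc* was 0.0088 under library size alone, 0.017 with DESeq2, 0.052 with libraries as samples, 0.0086 thinned, 0.085 with 4 or more markers, 0.13 in the astrocyte-like cluster's rule cells, 0.036 without unnamed clusters, 0.058 without the clusters led by *Cga* and 0.012 with non-neural cells by markers (-0.095 to 0.10), and *Sox9* was 0.018 in the astrocyte-like cluster. In other neural cells *Olig1* was -0.011 with DESeq2, -0.018 with the filter on the total alone, -0.021 with no filter, -0.023 with sex, -0.099 with TREAT and libraries as samples, -0.11 without doublets, -0.27 thinned, -0.59 with 2 or more markers, -0.42 outside the astrocyte-like cluster, -0.010 without the clusters led by *Cga* and -0.019 with non-neural cells by markers (-0.16 to 0.26). *Olig2* there was -0.00018 with no filter, -0.027 with sex, -0.022 without doublets, -0.044 thinned, -0.19 with 2 or more markers, -0.28 outside the cluster and -0.056 in neuron-type cells (-0.13 to 0.13), and *Fabp7* -0.096 in neuron-type cells. For the difference between sets, *Gfap* was 0.25 with 2 or more markers and 0.50 thinned (-1.54 to 0.51). In oligodendrocyte precursor-type cells *Nfia* went from -0.042 to 0.44 and *Aldoc* from -0.37 to 0.26 (0.081 with litters as samples). With litters as samples the counts were 6, 5, 5 and 5 in neural, astrocyte-type and other neural cells and for the difference between sets, and 3 in precursor-type cells, where *Olig1* was lost (-0.93, adjusted p = 0.05004). The cause was not tested.

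The settings with litters as samples, without the library of most cells, without the clusters led by *Cga*, with non-neural cells by markers in astrocyte-type and other neural cells, the rule with 2 of 3 markers, and the sets without neuron markers, in or outside named clusters, or of neuron-type cells were chosen after seeing the data. The rule asking for 3 precursor markers could not be fitted, with under 3 embryos of a genotype left. No paired analysis was possible because embryo numbers only name embryos and no litter, as read from the library names, held both genotypes. Few UMIs limit *Gfap* outside astrocyte-type cells, and few cells and embryos limit the precursor-type results.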
